A study of Homo sapiens with 4 samples.

Results

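Prostaglandin E2 synthesis, breakdown and receptor genes were followed in lapatinib-resistant breast cancer cells. The set was given as 10 genes: PTGS1, PTGS2, PTGES, PTGES2, PTGES3, PTGER2, PTGER3, PTGER4, HPGD and PTGIS. Array probes were assigned to a gene when their RefSeq accession belonged to it. This gave 17 of the 41000 probes, for 9 of the 10 genes and out of 16422 genes named in the same way. PTGES2 had no probe matched by accession and was not analyzed here.

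The samples were parental SkBr3 and BT474 cells and a lapatinib-resistant clone of each, SkBr3/Lap#6 and BT474/Lap#3, each hybridized to 1 array. Both lines are established from HER2-positive breast cancer and were grown in DMEM/F12. The parental cells are labeled as vehicle-treated, and the clones were raised in rising doses of lapatinib, which blocks the kinases EGFR and HER2, to at most 1 μM. Each resistant line is a single clone, so that features of the clone and of resistance cannot be told apart. In its protein blots the paper kept the clones in 1 μM lapatinib. Effects of the drug being present thus cannot be told apart from these features either. The clone numbers used here are those of the paper, whereas the sample labels give 3 to the SkBr3 clone and 6 to the BT474 clone.

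Prostaglandins are made from arachidonic acid that phospholipases release from membranes. The cyclooxygenases COX-1 (PTGS1) and COX-2 (PTGS2) convert it to prostaglandin H2, and terminal synthases then shape the single products. PTGES encodes the inducible microsomal prostaglandin E synthase-1, PTGES3 the cytosolic synthase that is also the HSP90 co-chaperone p23, and PTGIS the prostacyclin synthase. Of the receptors for prostaglandin E2, the set holds EP2 (PTGER2), EP3 (PTGER3) and EP4 (PTGER4) but not EP1 (PTGER1). EP2 and EP4 raise cyclic AMP and EP3 lowers it. HPGD encodes 15-hydroxyprostaglandin dehydrogenase, which inactivates prostaglandin E2. COX-2 is a known target of NF-κB, the factor whose activity the study examined in these clones.

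Of the 5 genes of the set with enough signal to be counted, only PTGES was more than 2-fold higher in each clone, 5.91-fold in the SkBr3 pair and 42.4-fold in the BT474 pair, against 2.58% of 11596 named genes that were at least 2-fold higher in both. HPGD was 22.6-fold higher in BT474/Lap#3 and 2.35-fold lower in SkBr3/Lap#6, and such opposite changes of at least 2-fold were seen in 2.69% of those genes. PTGS1 was 7.02-fold lower in SkBr3/Lap#6 and 0.38 higher on the log2 scale in BT474/Lap#3. COX-2 was not detected above background on any array.

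A level is given below as the processed signal, a linear intensity from which background was subtracted. For comparisons, its log2 was taken relative to the 75th percentile of the array's probes, which lay between 1115 and 2074. Between 66.6% and 74.0% of the probes carried the software's flag for a signal well above background, and signals down to 13.3 carried it. Where 1 of the signals compared lacked this flag, it was raised to the array's lowest flagged signal if below it, and the fold change is a limit. The ± after a log2 difference is the error that the software estimates for the spots. It does not include the spread between cultures, for which there are no replicates. The array of SkBr3/Lap#6 had a separate slide and scan from the other 3, so slide and resistance cannot be told apart in SkBr3, while both BT474 arrays shared a slide and a scan.

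The epithelial labels were checked first. ERBB2, the gene of HER2, had signals of 118706 in SkBr3/Lap#6 and of 237327 to 256346 on the other arrays, and the keratin genes KRT8 and KRT18 had signals of 105289 or more on every array. All 8 epithelial markers were well above background on 3 arrays and 7 in SkBr3, where ESR1, the estrogen receptor gene, was not. Relative to the 75th percentile, ERBB2 and its neighbor GRB7 were 3.74-fold and 2.29-fold lower in SkBr3/Lap#6, and 0 of the 8 passed 2-fold in BT474/Lap#3. The summed epithelial level was 818 and 489 times the 75th percentile in SkBr3 and its clone, and 727 and 482 times in BT474 and its clone. Of 5 fibroblast markers with a probe, 0 were well above background on 3 arrays and 2, COL3A1 and PDGFRB, on the SkBr3/Lap#6 array. Their summed level was 0.0122 to 0.0207 of the 75th percentile on the 3 arrays and 0.208 in SkBr3/Lap#6. Of 5 endothelial markers, 4 were well above background in SkBr3/Lap#6 and 1 or 2 on the other arrays. Their summed level was 0.176 in SkBr3 and 0.687 in its clone, where CDH5 was 8.43-fold and PECAM1 at least 5.38-fold higher, and 0.789 in BT474 and 0.398 in its clone. Of 6 leukocyte markers, 4 or 5 were well above background on each array, with a summed level of 0.155 to 0.840, but PTPRC, which defines leukocytes, was so on none. The part of other cells in the values below was not tested.

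**Figure D1:**
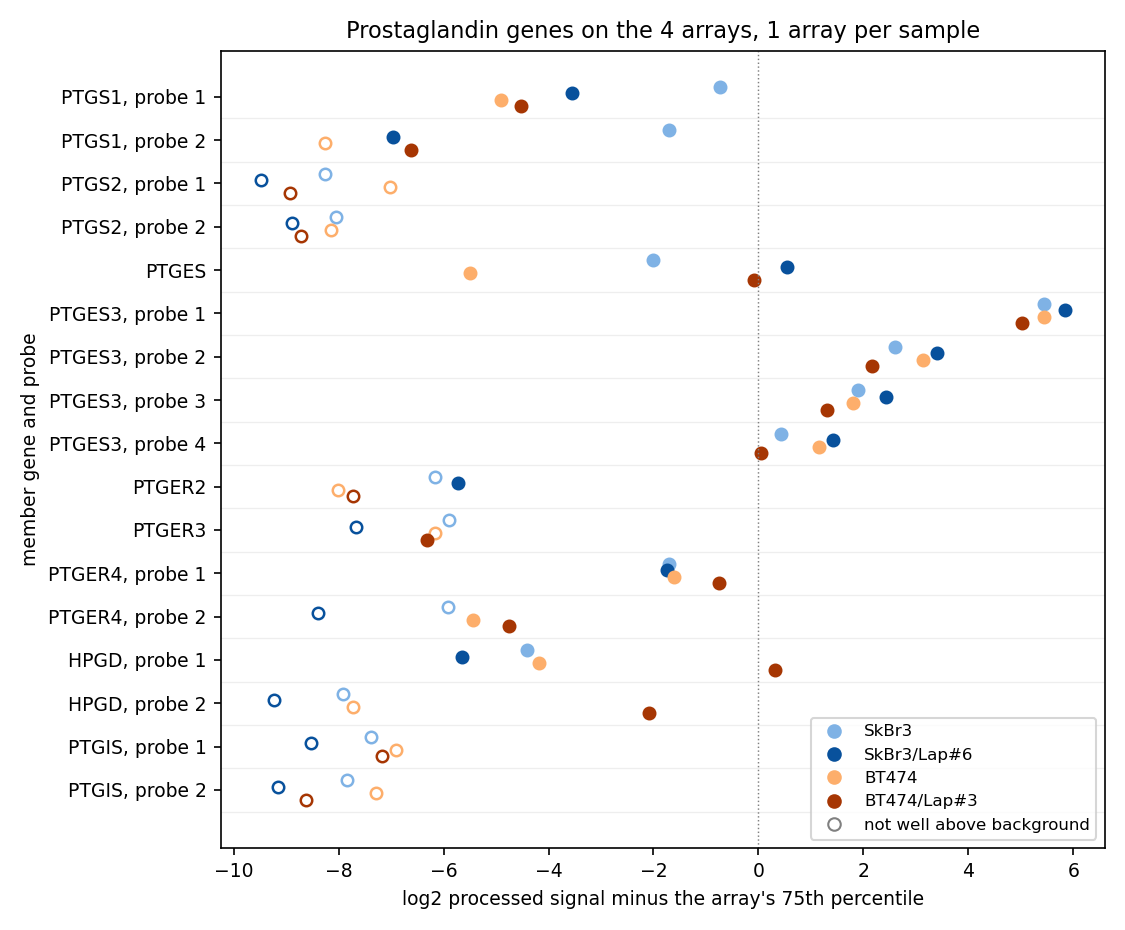
Level of each prostaglandin gene probe on the 4 arrays, as log2 processed signal relative to the 75th percentile of the array. Each row is a probe and each point an array, with open points for signals not well above background. The BT474/Lap#3 points of PTGES and HPGD lie far above those of BT474, the PTGS1 points of SkBr3 lie above the other 3 arrays, and all PTGS2 and PTGIS points are open.

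Starting with the enzyme that makes prostaglandin E2, the PTGES signal was 277 in parental SkBr3 and 3042 in its clone, and 25.8 in parental BT474 and 1587 in its clone. All 4 signals were well above background. BT474 was the lowest of the 4 and close to the background limit of its array, and the clones were the highest. The log2 difference of clone minus parent was 2.56 ± 0.20 in SkBr3/Lap#6 and 5.41 ± 0.29 in BT474/Lap#3. Among the named genes with a value, PTGES ranked 515 of 11787 from the top in SkBr3/Lap#6 and 23 of 11835 in BT474/Lap#3. PTGES also differed between the parental lines, where SkBr3 exceeded BT474 11.1-fold (log2 difference 3.48 ± 0.29). In the clones the signals lay closer together than in the parents.

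The upstream sequences of PTGES, HPGD and PTGS2 are shown because these genes had the higher level in both clones, opposite differences in the clones and no signal above background, respectively. They are the 250 bases before the RefSeq start in GRCh38.p14, at chr9:129753043-129753292 for PTGES, chr4:174522489-174522738 for HPGD and chr1:186680424-186680673 for PTGS2. All 3 are on the minus strand and are written 5′ to 3′. Capitals mark the letters of an EGR motif (GCGNGGGCG), an SP1 motif (GGGCGG) or a TATA motif (TATAAA), on either strand. The NF-κB consensus was searched as well, as exact matches to GGGRNWYYCC (R is A or G, W is A or T, Y is C or T). It had no match in these 3 windows. Stretches that differ from it by a letter, such as gggactaccc in the PTGS2 window, are missed. The search thus does not show that NF-κB sites are absent.
PTGES: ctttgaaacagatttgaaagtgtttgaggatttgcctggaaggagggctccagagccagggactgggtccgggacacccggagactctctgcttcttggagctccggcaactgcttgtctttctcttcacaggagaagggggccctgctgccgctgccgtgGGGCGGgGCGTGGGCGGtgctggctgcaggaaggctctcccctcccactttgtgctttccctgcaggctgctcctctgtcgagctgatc
HPGD: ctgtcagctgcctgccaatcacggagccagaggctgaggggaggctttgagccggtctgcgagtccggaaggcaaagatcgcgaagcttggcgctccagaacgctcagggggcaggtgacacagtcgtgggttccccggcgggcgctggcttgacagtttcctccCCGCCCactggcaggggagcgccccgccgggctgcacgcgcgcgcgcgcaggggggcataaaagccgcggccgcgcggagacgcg
PTGS2: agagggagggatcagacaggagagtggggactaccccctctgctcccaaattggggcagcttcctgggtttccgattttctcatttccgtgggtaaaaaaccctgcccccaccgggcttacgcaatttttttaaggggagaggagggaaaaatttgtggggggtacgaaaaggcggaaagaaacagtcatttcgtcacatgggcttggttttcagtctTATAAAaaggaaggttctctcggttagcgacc

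The PTGES window held an EGR match 82 bases before the start and SP1 matches 89 and 78 bases before it, the nearer of which overlaps the EGR match. The HPGD window held 1 SP1 match, 85 bases before the start, and the PTGS2 window a TATA match 32 bases before the start. RefSeq gives HPGD a second start farther upstream, whose window held none of these motifs. Over the 35116 windows of all genes, an EGR match was present in 8.41%, an SP1 match in 42.6%, a TATA match in 10.7% and the NF-κB consensus in 5.21%. Windows were at hand for 8 genes of the set and 12 starts. An NF-κB match was found only at PTGER4, as GGGGCTTCCC beginning 244 bases before the start. The same windows were searched for AP-1 (TGANTCA), cyclic AMP response element (TGACGTCA) and E-box (CACGTG) motifs, and the single match was an E-box at a start of PTGES2. These motifs were present in 6.57%, 1.65% and 6.34% of all windows, respectively. As for NF-κB, only exact matches were counted. A stretch such as cacatg in the PTGS2 window, a letter away from the E-box, is missed. The search thus does not show that such sites are absent. The matches describe letters in the window, and binding was not measured.

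HPGD, the gene of the degrading enzyme, had signals at its brighter probe of 52.2 in parental SkBr3 and 41.4 in its clone, and of 64.1 in parental BT474 and 2106 in its clone. All 4 were well above background, 3 of them low and similar, and BT474/Lap#3 stood far above the rest. The log2 difference was 4.50 ± 0.22 in BT474/Lap#3, which ranked 48 of 11835 from the top. It was -1.23 ± 0.24 in SkBr3/Lap#6. Before scaling, the SkBr3 difference was -0.34 on the log2 scale, and the 75th percentile of the SkBr3/Lap#6 array was 0.90 higher (log2) than that of SkBr3. With normexp background correction and quantile normalization it was -0.48 and thus less than 2-fold. At the other HPGD probe, BT474/Lap#3 had a signal of 398 and the other 3 arrays had signals of 3.46 to 5.47, not well above background. This probe placed HPGD at least 17.2-fold higher in BT474/Lap#3 than in BT474 and gave no fold in SkBr3. BT474/Lap#3 was thus higher than its parent in both PTGES and HPGD, which make and inactivate prostaglandin E2.

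Of the cyclooxygenases, COX-1 was the one detected. The brighter PTGS1 probe had signals of 671 in parental SkBr3 and 178 in its clone, and of 38.8 in parental BT474 and 73.4 in its clone. SkBr3 was the highest and BT474 the lowest, and all 4 were well above background. The log2 difference was -2.81 ± 0.21 in SkBr3/Lap#6, rank 329 of 11787 from the bottom, and 0.38 ± 0.24 in BT474/Lap#3. The other PTGS1 probe had signals of 340 in SkBr3 and 16.6 in its clone, a larger log2 difference of -5.25 ± 0.34. In BT474 it went from 3.77, not well above background, to 17.1, for which the limit was under 1 and no fold is given. When the probes of a gene were averaged, the log2 difference of PTGS1 was -4.03 for the SkBr3 pair and 1.01 for the BT474 pair. The latter took the signal of 3.77 without a limit. Parental SkBr3 exceeded parental BT474 17.9-fold at the brighter probe, a log2 difference of 4.17 ± 0.24.

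PTGS2 was represented by a probe with 10 spots and a probe with 1 spot. The 10 spots ranged from 3.39 to 8.89 in parental SkBr3 and 2.98 to 5.63 in its clone, and from 3.35 to 6.92 in parental BT474 and 3.09 to 9.21 in its clone. The single spot had signals of 3.65, 2.91, 8.97 and 3.46 in the same order. None of these spots was well above background, so the arrays give only a bound for COX-2 and no fold change. PTGIS, the prostacyclin synthase gene, was likewise below this limit at both probes on all arrays, with signals of 3.62 to 11.6.

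PTGES3 had 4 probes and all were well above background on every array. At the brightest, the signals were 48819 in parental SkBr3 and 118455 in its clone, and 50588 in parental BT474 and 54869 in its clone. Its log2 difference was 0.38 ± 0.20 in SkBr3/Lap#6 and -0.42 ± 0.20 in BT474/Lap#3. Over the 4 probes the differences had a median of 0.66 in SkBr3/Lap#6 (0.38 to 1.00) and of -0.73 in BT474/Lap#3 (-1.10 to -0.42). The sign was positive in SkBr3/Lap#6 for all 24 values of the 4 probes under 6 ways of scaling, and negative in BT474/Lap#3 for all 24. These values rescale the same arrays and are not separate measurements. Before scaling, BT474/Lap#3 was above BT474 at the brightest probe and at a dimmer one (signals of 4164 and 4055), so the negative sign there depends on scaling. The 75th percentile of the BT474/Lap#3 array was 0.54 higher (log2) than that of BT474. At 1 probe the BT474/Lap#3 level was 2.14-fold lower, and the other BT474/Lap#3 differences and all in SkBr3/Lap#6 were under 2-fold as scaled here. RefSeq lists 5 PTGES3 pseudogenes, and whether the probes also detect their transcripts was not tested.

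The receptor genes stayed under 2-fold wherever clone and parent were both well above background. The brighter PTGER4 probe had signals of 342 in parental SkBr3 and 616 in its clone, and of 377 in parental BT474 and 993 in its clone, all well above background. Its log2 difference was -0.05 ± 0.20 in SkBr3/Lap#6, smaller than its error and 0.11 with median scaling, and 0.86 ± 0.20 in BT474/Lap#3, a 1.81-fold higher level. The other PTGER4 probe went from 26.8 in BT474 to 62.0 in BT474/Lap#3, a log2 difference of 0.68 ± 0.29, and was not well above background in SkBr3 or SkBr3/Lap#6. Among the EP receptor genes of the set, PTGER4 was thus the one with a signal well above background on all 4 arrays.

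PTGER2 and PTGER3 were near the background limit. The PTGER2 signal was 15.6 in parental SkBr3 and 39.1 in its clone, and 4.47 in parental BT474 and 7.88 in its clone, and only the SkBr3/Lap#6 signal was well above background. It was at least 1.31-fold higher than in SkBr3. The PTGER3 signal was 18.8, 10.2, 16.1 and 21.2 in the same order of arrays, and only that of BT474/Lap#3 was well above background. No fold is given, since the limit was under 1.

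A signal of 100 on at least 1 array was required for counting, which 10 probes of 5 genes of the set reached: PTGS1, PTGES, PTGES3, PTGER4 and HPGD. Each gene was represented by its brightest probe. HPGD reached a signal of 100 only in BT474/Lap#3, so it is counted only through the array on which it was high. PTGS1 reached it only in SkBr3 and SkBr3/Lap#6. The named genes passed the same filter. In SkBr3/Lap#6, 1 of the 5 genes was at least 2-fold higher, against 13.8% of 11878 named genes, and 2 were at least 2-fold lower, against 13.3%. In BT474/Lap#3, 2 of the 5 were at least 2-fold higher, against 8.81% of 11877 named genes, and 0 were lower, against 5.27%. The share of named genes at least 2-fold lower in both clones was 1.27% of 11596. With 5 genes these counts describe the set and do not set it apart from the other genes. The median log2 difference of the 5 genes was -0.05 in SkBr3/Lap#6 and 0.86 in BT474/Lap#3, beside -0.05 and -0.08 for all named genes. Between the parental lines, PTGES and PTGS1 were at least 2-fold higher in SkBr3, against 19% of 11922 named genes, and 0 of the 5 were lower, against 19.4%.

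**Figure D2:**
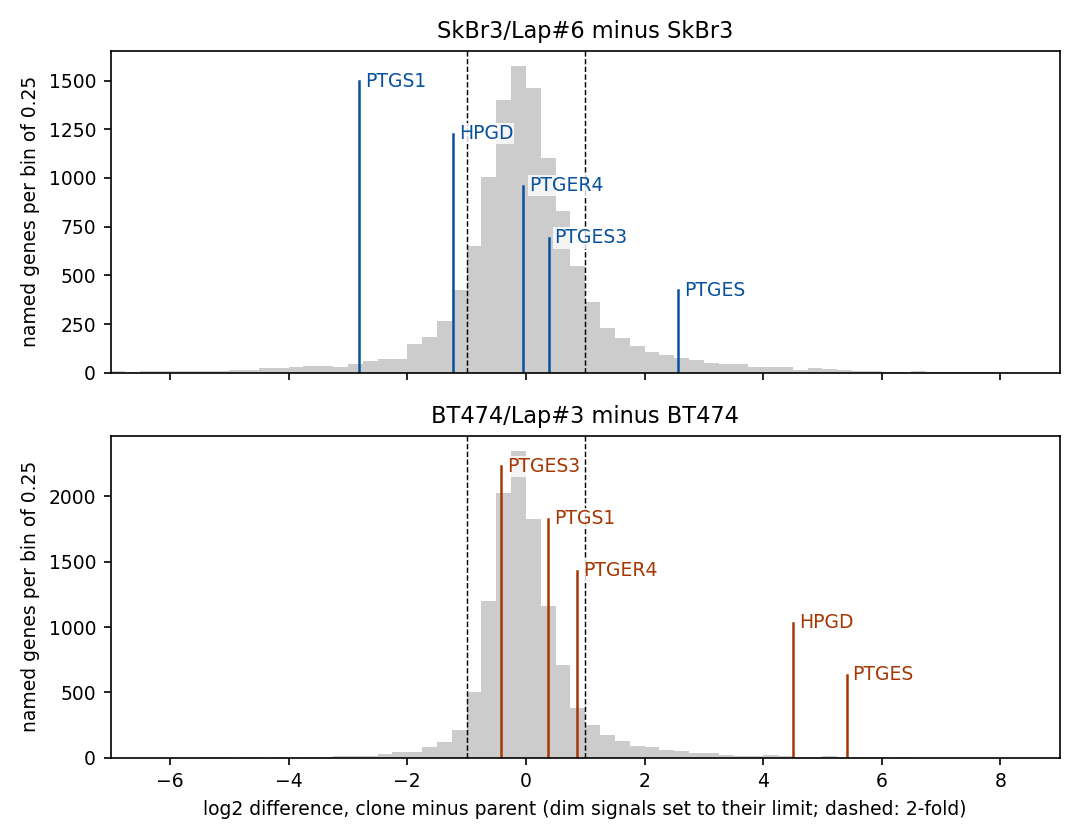
Log2 difference of clone minus parent for all named genes (gray bars, number of genes per bin of 0.25) and for the 5 counted prostaglandin genes (colored lines, whose heights only separate the names). Dashed lines mark 2-fold. In SkBr3/Lap#6 the set spread from PTGS1 at -2.81 to PTGES at 2.56, and in BT474/Lap#3 from PTGES3 at -0.42 to PTGES at 5.41.

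With the cell lines standing in for replicates of resistance, limma was fitted over 25927 probes with cell line as a block, which left 1 residual degree of freedom. Of the 10 probes of the set, 0 had a Benjamini-Hochberg adjusted p below 0.05, and the same held for all 25927 probes (0%). PTGES was the probe of the set with an unadjusted p below 0.05, at a share of 3.47% over all probes. It was higher in the clones of both lines, with a mean log2 difference of 3.98 (SE 0.87). Its p in limma was 0.0139 before and 1.00 after the adjustment. Each array was also left out, in fits without the cell line block, so that differences between the lines enter these values. Without the parental BT474 array the difference of PTGES was 2.25, and without the parental SkBr3 array it was 5.72. Leaving out a clone gave 3.67 (without SkBr3/Lap#6) and 4.30 (without BT474/Lap#3). Slide as the block gave the same fit as leaving out SkBr3/Lap#6, the only array on its slide. In the fit with cell line as the block, the SE of HPGD at its brighter probe was 1.59 for a mean difference of 1.63. That of PTGS1 was 0.95 for -1.22. These errors were close to the mean differences in size. The limma fit draws the variance of each probe toward a value taken from all probes. These errors, and the SE and p of PTGES, thus rest only in part on the unlike values of the clones.

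**Figure D3:**
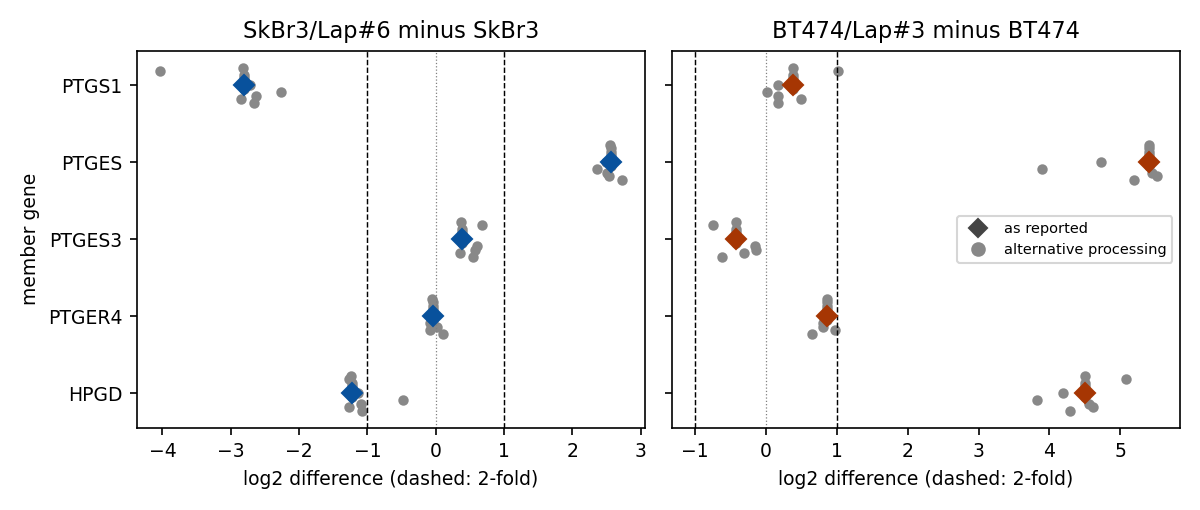
Log2 difference of clone minus parent for the 5 counted genes as reported (diamonds) and under the alternative ways of processing (gray points). Dashed lines mark 2-fold. The points of PTGES stayed above 2-fold in both clones, at 2.37 to 2.72 in the SkBr3 pair and 3.89 to 5.51 in the BT474 pair. HPGD in SkBr3/Lap#6 had a point at -0.48 and PTGS1 in BT474/Lap#3 a point at 1.01.

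The steps around the set were examined with lists of other pathway genes, whose counts stand beside the shares over all named genes of 13.8% higher and 13.3% lower in SkBr3/Lap#6 and 8.81% higher and 5.27% lower in BT474/Lap#3. List medians take limits at their bound and leave out genes without a fold. For arachidonate release and its return to lipids, 15 genes were measured in each clone. In SkBr3/Lap#6, 3 were at least 2-fold higher and 4 lower, with a median log2 difference of -0.22 beside -0.05 for all named genes. In BT474/Lap#3, 3 were higher and 1 lower, with a median of -0.05 beside -0.08. PLA2G4A, the cytosolic phospholipase that supplies arachidonate to the cyclooxygenases, had signals of 159 in parental SkBr3 and 3.09 in its clone, at least 22.2-fold lower. In the BT474 pair the signals were 23.3 and 11.6, at least 2.31-fold lower in the clone. PLA2G2A, a secreted phospholipase, was 19.2-fold lower in the SkBr3 clone but 3.65-fold higher in the BT474 clone. ACSL4, which couples free arachidonate to coenzyme A, was higher in both clones, 11.6-fold in the SkBr3 pair and at least 2.38-fold in the BT474 pair. The phospholipase genes PLA2G10 (3.27-fold lower in SkBr3/Lap#6) and PLA2G1B (2.65-fold higher in BT474/Lap#3) and the acyltransferase gene LPCAT3 (2.48-fold lower in SkBr3/Lap#6) passed 2-fold in 1 clone.

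Among other prostanoid synthases and reductases, 3 of 8 genes were at least 2-fold higher in SkBr3/Lap#6 and 2 lower, with a median log2 difference of 0.65 beside -0.05 for all named genes. In BT474/Lap#3, 3 of 7 were higher and 0 lower, with a median of at least 0.84, the limit for AKR1C1, beside -0.08. AKR1C3, a prostaglandin F synthase, went from a signal of 37.2 to 999 in SkBr3/Lap#6, 14.4-fold, and from 9.31 to 509 in BT474/Lap#3, at least 22.0-fold. AKR1B1, an aldose reductase with the same activity, was 8.68-fold and 2.09-fold higher. AKR1C1, a close homolog of AKR1C3, was 2.55-fold and at least 1.80-fold higher, and whether AKR1C probes detect each other's transcripts was not tested. TBXAS1, the thromboxane synthase gene, was 7.34-fold higher in BT474/Lap#3. PRXL2B, a prostamide and prostaglandin F synthase gene, and PTGDS, a prostaglandin D synthase gene, were 2.65-fold and 2.19-fold lower in SkBr3/Lap#6.

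The 3 measured genes of the other prostanoid receptor list were PTGIR, TBXA2R and PTGFRN, the last of which is not itself a prostanoid receptor gene. None of the 3 reached 2-fold in either clone, and their log2 differences lay between -0.29 and 0.58. Of the transport and breakdown genes, 1 of 5 was higher and 1 lower in SkBr3/Lap#6, and 1 of 4 was higher in BT474/Lap#3. Their median log2 differences were -0.49 and -0.10. ABCC4, an exporter of prostaglandins, was at least 3.78-fold higher in SkBr3/Lap#6, and PTGR1, a prostaglandin reductase gene, was 3.72-fold lower there. CYP4F8, a prostaglandin hydroxylase gene, went from a signal of 117 to 5218 in BT474/Lap#3, 30.7-fold.

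In the lipoxygenase branch, which takes the same substrate to leukotrienes, 1 of 7 genes was higher in SkBr3/Lap#6 and 0 lower, and 2 were higher and 1 lower in BT474/Lap#3. The median log2 differences were -0.21 and 0.49. ALOX5, the 5-lipoxygenase gene, had signals of 12.9 in parental SkBr3, not well above background, and 9989 in its clone, at least 335-fold higher. In BT474/Lap#3 it went from 3.80, also not well above background, to 94.2, at least 4.06-fold. ALOX15B had signals of 7668 in parental BT474 and 226 in its clone, 49.2-fold lower, and of 21.2 and 29.1 in the SkBr3 pair. LTC4S, the leukotriene C4 synthase gene, was 2.09-fold higher in BT474/Lap#3.

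**Figure D4:**
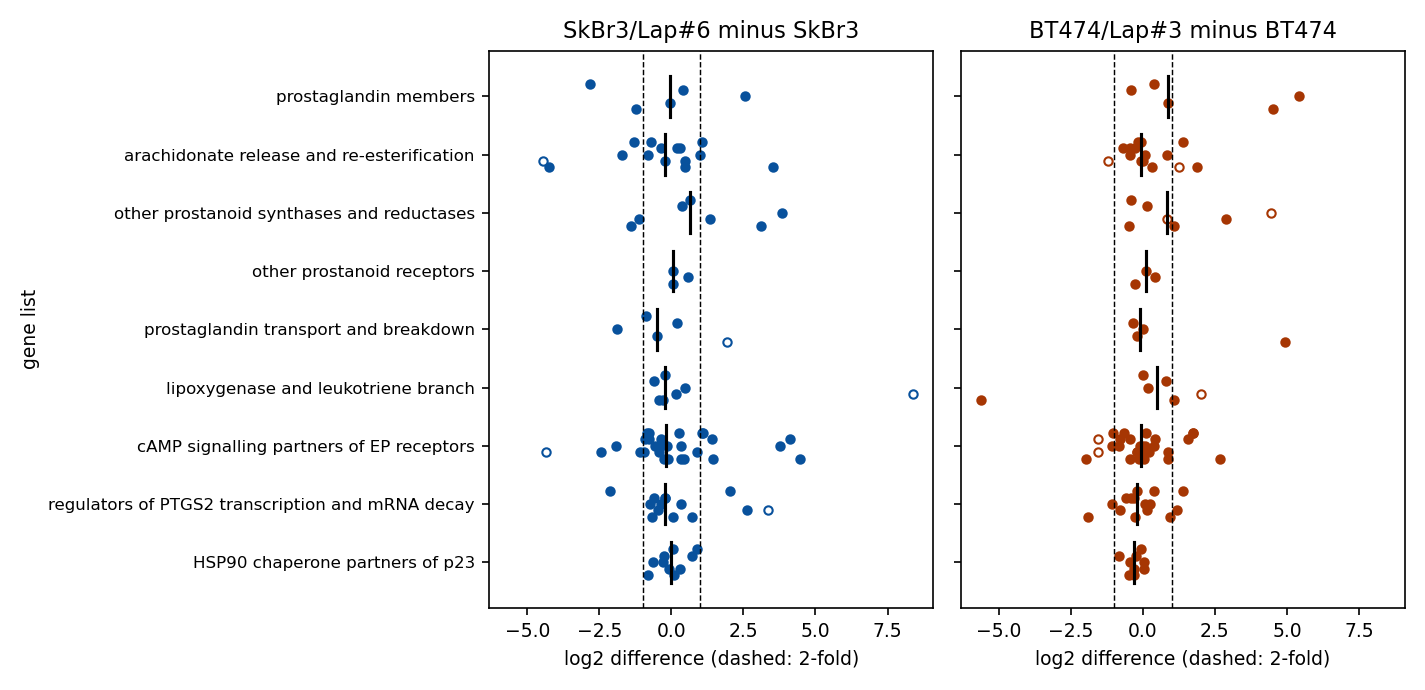
Log2 difference of clone minus parent for the measured genes of each pathway list, with filled points for signals measured on both arrays, open points for limits and black bars for list medians. Dashed lines mark 2-fold. List medians lie between -0.49 and 0.86, with single genes such as ALOX5 in SkBr3/Lap#6 and ALOX15B in BT474/Lap#3 far from them.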

How the data were processed

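Total RNA of 4 samples was profiled on 1-color Agilent Human Whole Genome 4 × 44 K arrays. The authors deposited, per the file headers, Feature Extraction 10.1.1.1 output with Cy3 processed signals as intensity values after background subtraction and detrending, median pixel intensities and flags. The methods name another version, Cy3 or Cy5, and LOWESS. They also deposited a log2 table per probe, whose differences between arrays matched those of the processed signals, after a constant per array, to a median of 2.9e-07.

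Log2 signals were averaged over the spots of a probe and the 75th percentile over 41000 non-control probes was subtracted. A probe was well above background when at least 50% of its spots were. Genes were represented by the brightest probe with a signal of at least 100 on 1 array (25927 probes kept), and 2-fold was the threshold. No spot was saturated. The median SD of 10-fold spotted probes was 0.06 to 0.07 (log2). With 1 array per group, their number limits the precision.

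Probes were named through RefSeq accessions (GRCh38.p14), and 23680 of 41000 had 1 gene. The gene set and all lists were chosen with earlier results of these data known. All members are named whatever their values. Of each pathway list, up to 6 genes with the largest change of at least 2-fold are named. Limma 3.58.1 in R 4.3.3 was used with Benjamini-Hochberg adjustment. Other steps used Python 3.11.15, numpy 2.4.6 and pandas 2.3.3. Scripts were tested on simulated data.

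Alternatives were the median or the percentile over probes well above background on all arrays, quantile normalization, normexp (offset 50, on median intensities, as mean intensities were not used here), the log2 table, 16 added to the signal, other filters, no limits for dim signals, 3-fold, the mean over probes and outlier spots left out. For limma they were no block, slide as a block and each array left out.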

Additional observations from a re-analysis of the deposited data

Results flagged for a closer look

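HPGD stood out because its clones moved in opposite directions from their parents, with log2 differences of -1.23 (SkBr3/Lap#6) and 4.50 (BT474/Lap#3). The SkBr3/Lap#6 difference was between low signals of 52.2 and 41.4, and it was -0.48 and thus under 2-fold with normexp correction. PTGS1 had log2 differences of -2.81 (SkBr3/Lap#6) and 0.38 (BT474/Lap#3), which also differ in sign, but the second was under 2-fold and was 0.01 with normexp correction. These differences between the cell lines were not tested, since each clone was measured on 1 array. Changes of at least 2-fold in opposite directions, as HPGD had with the main scaling and PTGS1 did not, were seen for 2.69% of 11596 named genes.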

How the results depend on the processing

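The counts of changed prostaglandin genes stayed within 1.5 times of those reported under the alternatives, with an exception. The count of lower genes in SkBr3/Lap#6 was 1 in place of 2 with normexp correction before quantile normalization and 1 at a 3-fold threshold, and PTGS1 was the gene left each time. Of 120 log2 differences of the 5 genes in the clones under an alternative, 117 stayed on the same side of the threshold. The exceptions were HPGD in SkBr3/Lap#6 under those 2 settings and PTGS1 in BT474/Lap#3 when probes were averaged (1.01, giving 3 higher genes in place of 2). That average took in the dimmer PTGS1 probe without a limit, at a BT474 signal of 3.77 that was not well above background. The cause of the HPGD change with normexp correction was not tested. PTGS1 in BT474/Lap#3 ranged from 0.01 to 1.01. Scaling by the median moved the median log2 difference of all named genes to 0.11 (from -0.05) for SkBr3/Lap#6 and to -0.29 (from -0.08) for BT474/Lap#3, where the higher genes then made up 45.8% of those changed in place of 62.6%. In limma with all 4 arrays and cell line or no block, 0 probes of the set had an adjusted p below 0.05 under the alternatives. The same held for all probes tested (0%), so this sameness says nothing particular about the set. PTGES had an unadjusted p below 0.05 in each of these fits, at shares of 1.19% to 4.98% over all probes. Without the signal filter, a PTGS2 and a PTGIS probe did so too, though neither was well above background on any array. For fits with an array left out, only differences are given. Each clone was paired with its own parent through the cell line block of limma, and without this block the count was 0 as well. No paired analysis by replicate number was possible because every sample carries number 1. The arrays were left out without the cell line block, since no residual degree of freedom is left with it. Slide as the block and SkBr3/Lap#6 left out are the same fit, so these 2 alternatives are not separate checks. Signal over background limits PTGS2, PTGIS, PTGER2 and PTGER3, which could not be compared beyond their limits.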

Other observations

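Genes listed as partners of the EP receptors, as regulators of COX-2 or as partners of p23 were examined as well. Of 28 cyclic AMP signaling genes measured in SkBr3/Lap#6, 7 were at least 2-fold higher and 4 lower, against 13.8% and 13.3% of all named genes. In BT474/Lap#3, 4 of 28 were higher and 5 lower, against 8.81% and 5.27%. The median log2 differences of the list were -0.20 and -0.08, beside -0.05 and -0.08 for all named genes. GNAI1, a subunit of the G protein that EP3 uses, was higher in both clones, 21.9-fold in the SkBr3 pair and 6.46-fold in the BT474 pair. The adenylyl cyclase gene ADCY7 was 17.1-fold higher in SkBr3/Lap#6 but at least 2.94-fold lower in the BT474 clone, and ADCY5 was at least 20.4-fold lower in SkBr3/Lap#6. PRKAR2B, a regulatory subunit of protein kinase A, was 13.5-fold higher in SkBr3/Lap#6, with a log2 difference of -0.84 in BT474/Lap#3. PDE4D, a phosphodiesterase gene, was lower in both clones, 5.44-fold in the SkBr3 pair and at least 2.96-fold in the BT474 pair. NR4A1, a gene induced by cyclic AMP, was 3.94-fold lower in BT474/Lap#3.

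Of the genes listed as regulators of COX-2 transcription and mRNA decay, 3 of 14 were higher and 1 lower in SkBr3/Lap#6. In BT474/Lap#3, 2 of 15 were higher and 2 lower. The median log2 differences were -0.22 and -0.20. These counts and medians stand beside the same shares and medians over all named genes as above. CEBPD was 6.19-fold and 2.30-fold higher in the clones, in the same order. RELB, an NF-κB subunit gene, was 4.06-fold higher in SkBr3/Lap#6, and REL was 2.62-fold higher in BT474/Lap#3. PARM1, whose role in COX-2 regulation was not checked here, was higher in SkBr3/Lap#6 by at least 3.34 on the log2 scale. It is among the 3 counted as higher there. NFATC1 was 4.37-fold lower in SkBr3/Lap#6, and CEBPB 3.73-fold lower in BT474/Lap#3. COX-2 itself was not well above background on these arrays. Of the HSP90 partners of p23, 0 of 10 in SkBr3/Lap#6 and 0 of 9 in BT474/Lap#3 changed 2-fold, with medians of -0.01 and -0.30.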
